A study of Mus musculus with 18 samples.

Results

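Germ cells of Ts65Dn males at 16-17 days post partum (dpp) were compared with those of WT males of the same age. The samples were chosen by their labels, 3 Ts65Dn arrays and 3 WT arrays, 6 of the 18 arrays of the series. All samples were enriched male germ cells of juvenile mice, and total RNA of each of 3 biological replicates per group was hybridised to 1 Illumina MouseWG-6 v1.1 BeadArray. Ts65Dn is a mouse model of Down syndrome that carries a freely segregating marker chromosome with an extra copy of distal chromosome 16 and of a proximal piece of chromosome 17. Ts1Cje, the second model of the series, has an extra copy of a shorter part of the same chromosome 16 region. The WT mice were diploid littermates, and the labels do not say of which model. The series also holds the 3 genotypes at 19-20 dpp, again with 3 arrays each. Ages, strain backgrounds and litters beyond these labels are not given in the sources used here, and neither is the method of germ cell enrichment.

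In the mouse testis the first wave of spermatogenesis is nearly synchronous, so that a juvenile testis of this age holds germ cells up to pachytene, the long stage of meiotic prophase in which homologous chromosomes are fully paired. In a trisomic cell the extra chromosome has no regular partner at this stage, and male carriers of such extra chromosomes are often subfertile. A gene present in 3 copies in place of a pair can yield up to 1.5 times as much transcript if nothing else alters its expression, which is 0.585 on the log2 scale. Around the tubules lie Leydig cells, which make testosterone from cholesterol. Inside them lie the Sertoli cells that nurse the germ cells, and a germ cell preparation can hold some of each.

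All levels below are log2 intensities after background correction and normalisation, and all differences are Ts65Dn minus WT means on that scale with the standard error (SE) of the limma model. A probe was called at a Benjamini-Hochberg adjusted p under 0.05, and 2 groups are described as apart where every array of one lay above every array of the other. With 3 arrays against 3, an exact permutation test of a single value cannot give a two-sided p below 0.1, so p-values come from the limma fit. Between 18178 and 19176 probes were detected on the 6 arrays, and the median signal ran from 187.5 to 225.2. WT replicate 1 stood apart from the rest: its correlations with the other 5 arrays were 0.951 to 0.969, against 0.970 to 0.988 for the pairs without it. Ts1Cje replicate 1 of the same age shared its high means of late germ cell lists, as given below. Differences of named genes and list medians that moved by more than 1.5 times without WT replicate 1 are also given without it, except medians within 0.1 of 0. Of 9 pachytene to diplotene genes with a probe 7 were tested, and these were detected on all 6 arrays. Of 11 meiotic prophase genes with a probe 6 were tested, and 5 were detected on all 6 arrays. All 6 spermatogonial and all 7 Sertoli genes with a probe were tested and detected on all 6 arrays. So were 6 of 7 peritubular genes. Tested genes had already passed a filter on detection, so these counts cannot establish which cells were present.

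Few single probes separated the genotypes. Of 21340 tested probes 4 were called, all higher in Ts65Dn (0.0187% of those tested), and 0 were called lower. At an unadjusted p under 0.05 there were 864 higher (4.05%) and 791 lower (3.71%), 7.76% together. The groups were apart with Ts65Dn higher for 10.6% of the probes and lower for 8.84%, or 14.5% and 14.7% without WT replicate 1. The median difference over all tested probes was −0.01, and 48.5% of the differences were above 0. Gene symbols could be given to 28.1% of the tested probes, and 5178 named genes were tested, of which 54.7% had a difference above 0, 13.0% were apart with Ts65Dn higher and 7.32% with Ts65Dn lower.

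Of the 4 called probes 1 had a gene symbol, Tor1aip2 on chromosome 1, which encodes a protein that binds and activates torsin ATPases in the endoplasmic reticulum. Its levels were 7.90, 7.82 and 7.70 on the Ts65Dn arrays and 5.75, 5.77 and 5.73 on the WT arrays. WT was not detected above background on any of the 3 arrays, and the signal was at least 2.37-fold higher in Ts65Dn (limma, adjusted p = 0.0236). The Ts1Cje arrays of the same age read 6.77, 7.75 and 7.27, and at 19-20 dpp Ts65Dn averaged 7.12 ± 0.31 and WT 7.09 ± 0.25 (SD, n = 3 each). The gene was thus below detection in the younger WT group and detected in both genotypes 3 days later. Its call was lost when any 1 of the 6 arrays was left out (adjusted p = 0.053 to 0.207).

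The other 3 called probes have no gene symbol here. Probe 106760253 read 14.57, 15.19 and 15.32 in Ts65Dn and 10.13, 10.61 and 10.27 in WT (difference 4.69 ± 0.66, adjusted p = 0.0236). In the Ts1Cje and 19-20 dpp groups it was high on all arrays but 1, so that it was the younger WT group that stood low. Probe 106980440 read 10.13, 11.36 and 10.79 in Ts65Dn and 8.40, 7.38 and 7.11 in WT (difference 3.13 ± 0.40, adjusted p = 0.0222). The Ts1Cje arrays of this age read 8.72, 8.92 and 8.61. At 19-20 dpp this probe read 9.82, 10.93 and 10.21 in Ts65Dn and 11.58, 10.82 and 10.48 in WT, a difference of −0.64. Probe 107000132 read 9.94, 10.66 and 10.65 in Ts65Dn and 5.60, 5.66 and 5.56 in WT, where it was not detected on any array. It was at least 14.5-fold higher in Ts65Dn (adjusted p = 0.0379), yet it had separated high and low levels among the Ts1Cje arrays too. At 19-20 dpp this probe read 9.53, 9.94 and 8.96 in Ts65Dn and 8.92, 9.34 and 8.79 in WT, a difference of 0.46. The Ts1Cje arrays of that age read 5.62, 5.68 and 5.76. The call of probe 107000132 was lost when any 1 of the 6 arrays was left out (adjusted p = 0.053 to 0.228). That of probe 106760253 was kept without Ts65Dn replicate 1 (0.036) and lost without any other array (0.072 to 0.207). That of probe 106980440 was kept without Ts65Dn replicate 1 (0.022) or WT replicate 1 (0.0085) and lost without any other array (0.072 to 0.207).

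**Figure D1:**
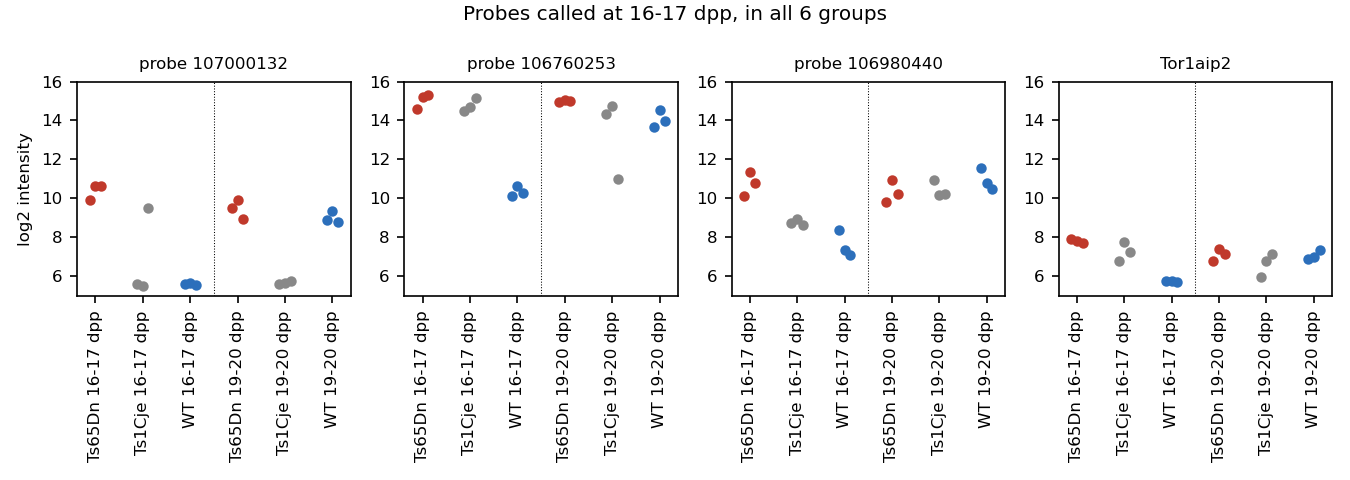
Log2 intensity (vertical axis) of the 4 called probes on each of the 18 arrays, grouped by genotype and age, with 1 point per array. Tor1aip2 and probe 106760253 were low in WT at 16-17 dpp and higher in the other groups, whereas probe 107000132 fell into separated high and low levels. Probe 106980440 was low in WT and Ts1Cje at 16-17 dpp and higher in the other groups.

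The clearest shared feature of the Ts65Dn samples lay in the genes of the extra chromosome. The chromosome 16 segment holds 150 genes of the reference table, of which 52 had a named probe and 27 were tested. Limma called 0 of them, while 16 of 27 were higher at an unadjusted p under 0.05 and 0 lower, against 4.92% and 2.76% of all named genes. For 25 of 27 the difference was above 0, and the median was 0.58 (0.61 without WT replicate 1), against 0.03 over all named genes. The Ts65Dn arrays lay apart above the WT arrays for 21 of 27 genes, against 13.0% of all named genes, and for 22 of 27 without WT replicate 1, against 16.6%. The mean level over the 27 genes was 10.65, 10.71 and 10.48 on the Ts65Dn arrays and 9.86, 10.07 and 10.09 on the WT arrays, so the groups did not overlap. The difference was within 1 SE of 0.585 for 15 genes. The 136 tested genes of the rest of chromosome 16, which are in the normal number of copies, had a median of 0.02. Of these 136, 19 were within 1 SE of 0.585. That also held for 65 of 161 X-linked genes and 5 of 7 Sertoli genes, so the count alone does not mark 3 copies.

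Among the regulators in this segment, Dyrk1a, a protein kinase of the nucleus, had levels of 9.59, 9.37 and 9.03 in Ts65Dn and 8.54, 8.19 and 8.61 in WT. Its difference of 0.88 ± 0.19 had an adjusted p of 0.183 by limma. Ets2, a transcription factor of the ETS family, had 11.83, 11.75 and 11.61 in Ts65Dn and 10.15, 10.98 and 11.27 in WT, a difference of 0.93 ± 0.42 (0.61 without WT replicate 1). The ETS factor Gabpa, which drives many nuclear genes for mitochondrial proteins, differed by 0.58 ± 0.19, and Bach1, a repressor of antioxidant genes, by 0.79 ± 0.26. These 4 genes had Ts65Dn arrays above all WT arrays. Hmgn1, a nucleosome-binding protein, differed by 0.23 ± 0.22, with the arrays just apart. Brwd1, a bromodomain protein that is required for normal gametogenesis in mice, differed by 0.34 ± 0.17. Its less bright probe differed by 0.45 ± 0.29.

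Cell surface and matrix genes included the largest differences of the segment. Jam2, a junctional adhesion molecule, had 10.59, 10.36 and 10.19 in Ts65Dn and 8.91, 8.54 and 9.40 in WT, a 2.70-fold difference (1.43 ± 0.41, adjusted p = 0.338). Its other probes gave 1.21 and 1.06, in the same direction. App, the amyloid precursor protein, had 13.99, 14.04 and 13.84 in Ts65Dn and 13.07, 13.19 and 13.41 in WT (0.73 ± 0.25, adjusted p = 0.486). The neighbouring cytokine receptor subunits Il10rb and Ifngr2, for interleukin 10 family ligands and for interferon gamma, differed by 1.13 ± 0.46 and 0.92 ± 0.36. Dscam, a neuronal adhesion molecule, read 7.38, 7.37 and 7.15 in Ts65Dn and was not detected on any WT array, a difference of at least 1.68-fold (adjusted p = 0.392). The metalloproteases Adamts5 and Adamts1 differed by 0.83 ± 0.48 and 0.31 ± 0.36, the second with overlapping arrays. Without WT replicate 1 these differences were 0.46 and 0.20.

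Of the metabolic and protein turnover genes, Mrps6, a mitochondrial ribosomal protein, had 13.79, 14.07 and 13.54 in Ts65Dn and 12.50, 13.00 and 12.96 in WT, a 1.97-fold difference (0.98 ± 0.29, adjusted p = 0.370). Sod1, the cytosolic superoxide dismutase, averaged 14.96 ± 0.06 in Ts65Dn and 14.61 ± 0.10 in WT (SD, n = 3 each; difference 0.35 ± 0.18). These arrays were apart by a smaller step, and a second, dim Sod1 probe differed by 0.10 ± 0.25. Psmg1, a proteasome assembly chaperone, differed by 0.38 ± 0.15, and Ttc3, a ubiquitin ligase, by 0.57 ± 0.22. Biotin ligase Hlcs, the quinone reductase relative Cryzl1 and the chloride channel family member Clic6 differed by 0.83 ± 0.37, 0.80 ± 0.28 and 0.81 ± 0.40. Only Eva1c (−0.14 ± 0.15) and Dnajc28 (−0.13 ± 0.46) of the 27 had differences below 0, and both were near the detection limit, with 1 and 0 Ts65Dn arrays detected. The remaining genes were Itsn1 (0.33 ± 0.22), Usp16 (0.36 ± 0.28), Zbtb21 (0.42 ± 0.17), Sh3bgr (0.27 ± 0.51) and Tmem50b (0.52 ± 0.17). Without WT replicate 1 the difference was 0.21 for Itsn1, 0.64 for Usp16 and −0.16 for Sh3bgr. Adamts1 and Sh3bgr, above 0 with all arrays, were also near the detection limit. Each was detected on 2 Ts65Dn arrays, with 1 WT array for Adamts1 and 2 for Sh3bgr.

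**Figure D2:**
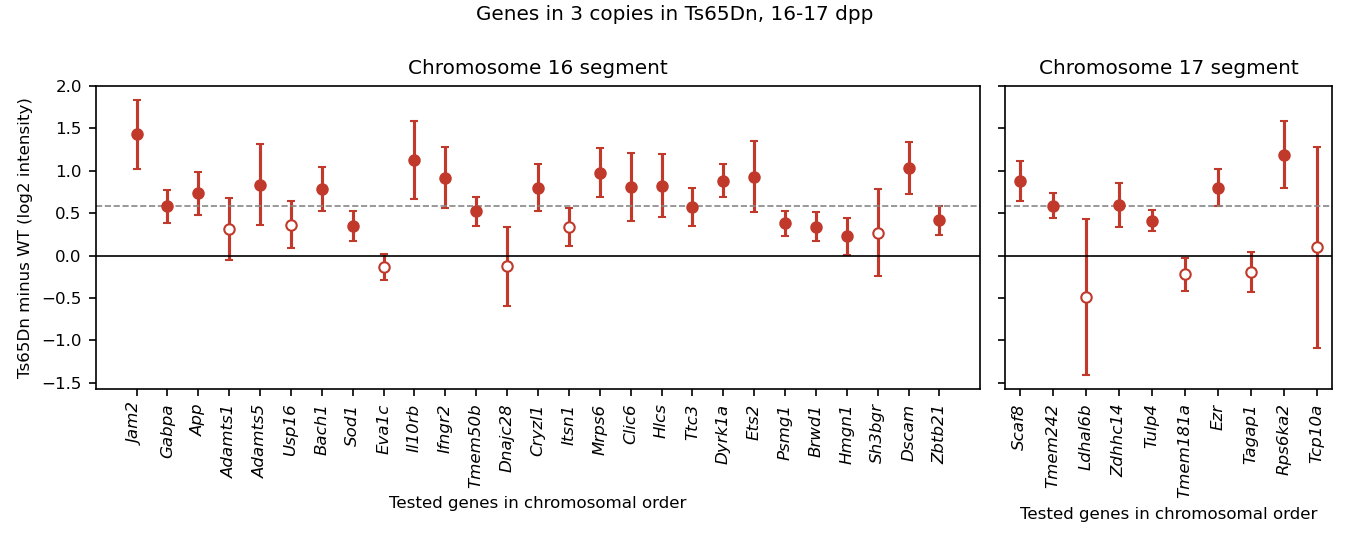
Difference between Ts65Dn and WT (vertical axis, log2, point and SE of the limma fit) of each tested gene of the chromosome 16 segment (27 genes) and the chromosome 17 segment (10 genes) in chromosomal order. Filled points have all Ts65Dn arrays above all WT arrays, and the dashed line at 0.585 is the log2 of 3 over 2 copies; 25 points of the first panel and 7 of the second lie above 0.

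The Ts1Cje arrays of the same age allow the segment to be divided by copy number in that model. Of the genes in 3 copies in Ts65Dn and not in Ts1Cje, from the proximal end of the segment through Sod1, 8 were tested. Their median was 0.66 against WT and 0.50 against Ts1Cje, and 4 of 8 were higher than in Ts1Cje at an unadjusted p under 0.05, against 2.68% of all named genes. These 4 were Jam2 (1.21 ± 0.41), App (0.88 ± 0.25), Gabpa (0.60 ± 0.19) and Bach1 (0.73 ± 0.26). Of the 19 tested genes in 3 copies in both models, the median was 0.57 against WT and 0.22 against Ts1Cje, and 0 of 19 were higher than in Ts1Cje at that p. Dyrk1a, for example, had 9.59, 9.37 and 9.03 in Ts65Dn and 8.67, 9.40 and 9.25 in Ts1Cje. Even so, 15 of these 19 genes had differences from Ts1Cje above 0, as did 7 of the 8, against 49.0% of all named genes. Il10rb, one of the 19, differed from Ts1Cje by 0.79 ± 0.46. Over all 21340 probes, limma called 0 between Ts65Dn and Ts1Cje (0%), with 1084 at an unadjusted p under 0.05. The division was made after the values had been seen, and both comparisons use the same Ts65Dn arrays.

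The chromosome 17 segment, which Ts1Cje lacks, holds 46 genes, of which 19 had a named probe and 10 were tested. Limma called 0 of 10. The median was 0.50 (0.54 without WT replicate 1), and 6 of 10 were higher at an unadjusted p under 0.05 and apart from WT, against 4.92% and 13.0% of all named genes. The mean level over the 10 genes was 11.73, 11.77 and 11.87 on the Ts65Dn arrays and 11.72, 11.16 and 11.38 on the WT arrays. Ts65Dn replicate 1 thus lay only just above WT replicate 1. Rps6ka2, a ribosomal S6 kinase, had 12.11, 11.80 and 11.73 in Ts65Dn and 10.50, 10.48 and 11.09 in WT, a 2.28-fold difference (1.19 ± 0.39, adjusted p = 0.472). Ezr, the membrane-cytoskeleton linker ezrin, had 12.08, 12.20 and 11.82 in Ts65Dn and 10.99, 11.53 and 11.17 in WT (0.80 ± 0.22, adjusted p = 0.331). Both genes were clearly apart on the arrays. Scaf8, which binds the tail of RNA polymerase II, differed by 0.88 ± 0.24, Zdhhc14, a palmitoyltransferase, by 0.60 ± 0.26, Tmem242 by 0.59 ± 0.15 and Tulp4 by 0.41 ± 0.12. For Zdhhc14 the difference was 0.32 without WT replicate 1.

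Against Ts1Cje, a comparison that shares the Ts65Dn arrays, all 10 tested genes of the segment had differences above 0 and 5 of 10 were higher at an unadjusted p under 0.05. Of all named genes 49.0% were above 0 in that comparison and 2.68% higher at that p. Ezr read 10.91, 11.51 and 10.48 on the Ts1Cje arrays, a difference of 1.06 ± 0.22. The 4 genes not named so far overlapped between Ts65Dn and WT. They were Tmem181a (−0.22 ± 0.19), Tagap1 (−0.19 ± 0.23), the testis genes Ldhal6b (−0.49 ± 0.92) and Tcp10a (0.10 ± 1.18). The Tagap1 probes disagreed, since the less bright one differed by 0.70 ± 0.21. Without WT replicate 1 the differences of Tmem181a and Tagap1 were −0.10 and −0.02. Ldhal6b and Tcp10a were highest on WT replicate 1, at 14.95 and 12.08, and without that array their differences were 0.08 and 1.08. That array also carried the highest mean of the late germ cell lists described below, and the part this had in the 2 values was not tested.

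Leydig cell genes were higher on most Ts65Dn arrays. Of 15 genes 8 had a probe and were tested, all 8 had differences above 0, against 54.7% of all named genes, and the median was 0.98 (0.92 without WT replicate 1). With the 2 genes undetected in WT set to their lower bounds the median was 0.50. Limma called 0 of 8, 4 were higher at an unadjusted p under 0.05 (4.92% of all named genes), and 6 were apart from WT (13.0% of all named genes). The mean level over the 8 genes was 8.65, 9.56 and 9.52 on the Ts65Dn arrays and 8.24, 8.10 and 8.38 on the WT arrays. Ts65Dn replicate 1 lay much nearer WT than the other 2 did. In a mixed preparation, more Leydig cells and more of these transcripts per Leydig cell cannot be told apart.

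Cyp11a1, the side-chain cleavage enzyme that starts steroid synthesis from cholesterol, had 9.05, 10.69 and 9.87 in Ts65Dn and 7.98, 7.80 and 8.06 in WT. The groups were apart, by 3.78-fold (1.92 ± 0.86, adjusted p = 0.614). Insl3, the Leydig hormone needed for testis descent, had 7.20, 9.74 and 9.90 in Ts65Dn and 7.41, 7.48 and 6.85 in WT. Here the first Ts65Dn array lay inside the WT range (1.70 ± 0.80, adjusted p = 0.646). Lhcgr, the receptor for luteinizing hormone, read 6.22, 7.57 and 7.39 in Ts65Dn, with 2 arrays detected, and was not detected in WT (at least 1.42-fold, adjusted p = 0.440). Hsd11b1, which interconverts active and inactive glucocorticoid, read 6.91, 6.75 and 7.49 in Ts65Dn and was likewise undetected in WT (at least 1.41-fold, adjusted p = 0.392).

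Prlr, the prolactin receptor, had 8.78, 9.93 and 10.34 in Ts65Dn and 8.62, 8.51 and 8.62 in WT (1.10 ± 0.69). Star, which carries cholesterol into mitochondria, had 8.26, 8.96 and 8.17 in Ts65Dn and 7.97, 7.85 and 8.05 in WT (0.50 ± 0.22). Both were apart, Star by a narrow margin. The lipoprotein receptor Scarb1 (0.39 ± 0.30) and the steroid reductase Srd5a1 (0.34 ± 0.40) showed the smallest differences, and Sertoli cells also express the first of them. Without WT replicate 1 these were 0.22 and 0.51.

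Leydig levels also varied in the other groups. The Ts1Cje arrays of this age had list means of 7.75, 8.83 and 8.91, again with replicate 1 the lowest. At 19-20 dpp the median difference between Ts65Dn and WT was −0.27, with 2 of 8 genes above 0. The difference of the differences, older minus younger, had a median of −1.02, and limma called it for 0 of 8 genes and for 0 of all 21340 probes (0%), with 3082 probes at an unadjusted p under 0.05. For Cyp11a1 it was −3.50 ± 1.21 (adjusted p = 0.229). The letters AAGGTCA, a binding motif of the steroidogenic factor SF-1, were searched on both strands in the RefSeq promoter windows, from 250 bases before to 50 after the start site (build GRCm38.p6). They were found in 0 of the 6 tested Leydig genes with such a window, and in 5.38% of 27025 genes of the table. Star and Scarb1 had no window. With so few genes, 0 of 6 cannot be told from a share of 5.38%. This motif was the only one searched.

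**Figure D3:**
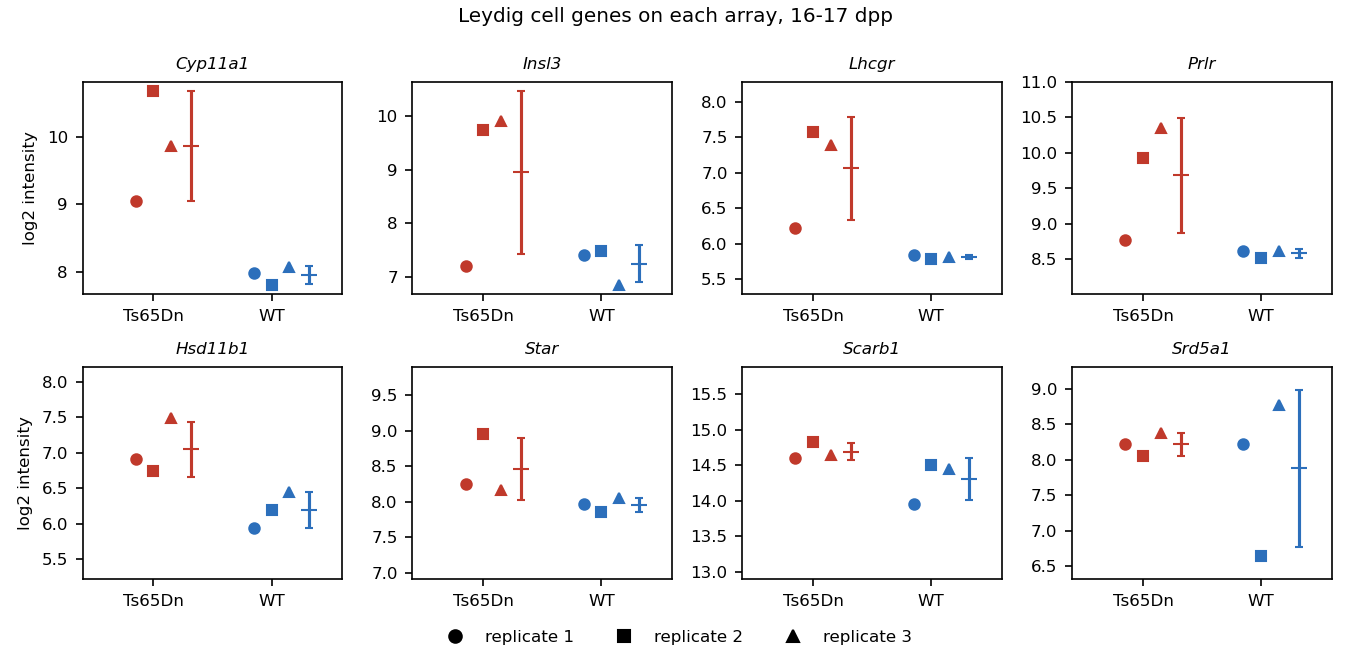
Log2 intensity (vertical axis; each panel has its own range) of the 8 tested Leydig cell genes on each array at 16-17 dpp, with Ts65Dn left and WT right; the bars beside the points give the mean ± SD of 3 arrays. Ts65Dn replicate 1 was the lowest Ts65Dn array for Cyp11a1, Insl3, Lhcgr, Prlr and, by a narrow margin, Scarb1.

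Markers of the other cells of the preparation gave no call. The Sertoli genes had a median of 0.17 (0.05 without WT replicate 1), with means of 12.14, 12.24 and 12.12 in Ts65Dn and 11.77, 12.03 and 12.21 in WT. Wt1, a Sertoli transcription factor, differed by 0.54 ± 0.34 and the transferrin gene Trf by −0.39 ± 0.37. The peritubular genes had a median of 0.19, which was −0.22 without WT replicate 1. Their means were 11.16, 11.11 and 11.04 in Ts65Dn and 10.03, 11.57 and 10.97 in WT, so the WT arrays spanned a wider range than the Ts65Dn arrays. Dcn, decorin, differed by 0.67 ± 0.47 and Col1a1, a collagen, by −0.22 ± 0.65 (−0.80 without WT replicate 1). The 7 macrophage genes had a median of 0.10, which was 0.32 without WT replicate 1, and the 4 endothelial genes had 0.33. The 3 red cell genes had 0.49, or 0.33 with 2 of them, each undetected in 1 genotype, at their bounds.

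Germ cell genes of late prophase were lower on average in Ts65Dn, and much of the difference rested on WT replicate 1. All 7 tested pachytene to diplotene genes had differences below 0, with a median of −0.58, and −0.24 without that array. Limma called 0 of 7, and 0 of 7 at an unadjusted p under 0.05. The means were 10.37, 10.23 and 10.49 in Ts65Dn and 11.31, 10.49 and 10.67 in WT. The Ts1Cje arrays of this age had 11.30, 9.86 and 10.88, so replicate 1 was the highest there as well. Aurkc, a meiotic spindle kinase, had 9.27, 9.38 and 9.53 in Ts65Dn and 10.64, 9.53 and 9.74 in WT (−0.58 ± 0.34, and −0.24 without WT replicate 1). The 7 round spermatid genes had a median of −0.30, which became 0.11 without WT replicate 1. Of these 7, 3 were detected on all 6 arrays and 2 on none. Zpbp2, a zona-binding protein of the acrosome, differed by −0.70 ± 0.75 with WT replicate 1 and by 0.04 without it. On the Ts1Cje arrays of this age the round spermatid means were 8.38, 7.00 and 7.96, against 8.63 on WT replicate 1. The source of the pattern shared by replicate 1 of WT and of Ts1Cje was not tested.

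The lists of earlier germ cell genes had medians above 0. The 6 spermatogonial genes had a median of 0.21 and the 6 meiotic prophase genes 0.18, with 5 of 6 genes above 0 and 0 called in each. Without WT replicate 1 the medians were 0.05 and 0.16, with 4 of 6 above 0 in each. Gfra1, a receptor subunit of spermatogonial stem cells, had 9.84, 9.88 and 9.73 in Ts65Dn and 8.27, 9.95 and 9.13 in WT. The arrays overlapped, and the difference was 0.70 ± 0.36, or 0.28 without WT replicate 1. Smc3, a core subunit of the cohesin ring that holds sister chromatids together, differed by 0.36 ± 0.21, and Cntd1, a cyclin-related crossover factor that was not detected in Ts65Dn, had the lowest t of the prophase list (−0.25 ± 0.23). Foxo1, a transcription factor of spermatogonia, differed by −0.07 ± 0.25 (−0.18 without WT replicate 1). Of the 161 tested X-linked genes, which are silenced in pachytene spermatocytes, 129 had differences above 0, against 54.7% of all named genes, with a median of 0.21. Without WT replicate 1 this median was 0.09 and 106 were above 0, against 50.3% of all named genes, and limma called 0 of 161.

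**Figure D4:**
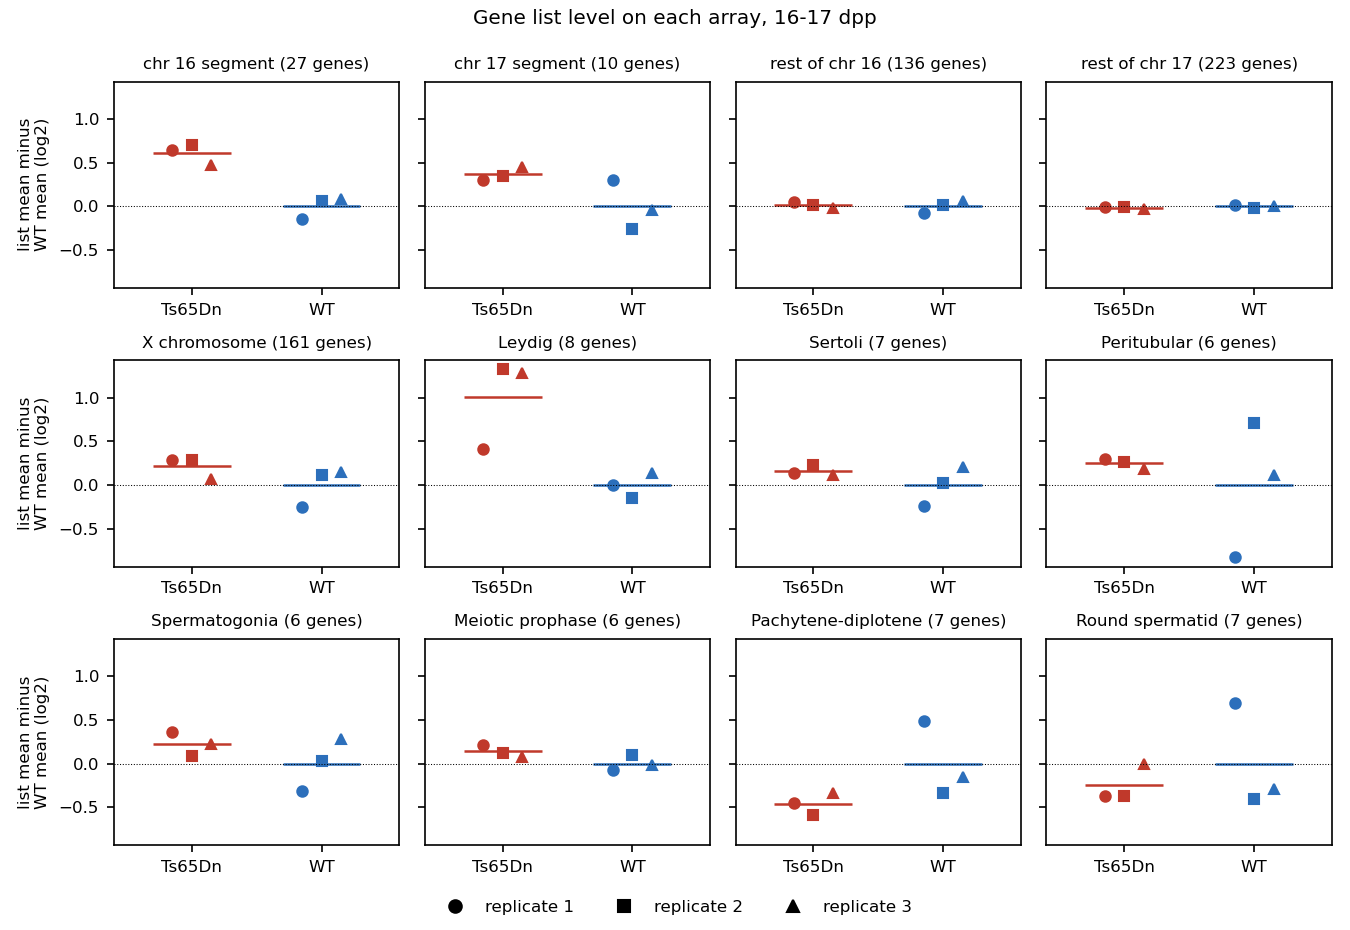
Mean log2 intensity of each gene list on each array at 16-17 dpp, relative to the WT mean of that list (vertical axis), with Ts65Dn left and WT right, a symbol for each replicate and a line at the group mean. In the panels of the chromosome 16 segment, the Leydig list and, narrowly, the chromosome 17 segment every Ts65Dn array lies above every WT array. WT replicate 1 is the highest array for pachytene to diplotene and round spermatid genes and the lowest for X-linked genes.

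Among lists of cell functions, the median was 0.04 for 68 ribosomal protein genes, 0.04 for 43 oxidative phosphorylation genes, 0.00 for 21 proteasome genes and −0.09 for 13 heat shock and chaperone genes, with 0 called in each. For 9 oxidative stress genes the median was 0.38. Of the 9, 5 were apart higher in Ts65Dn and 2 apart lower, against 13.0% and 7.32% of all named genes. The 9 genes include Sod1 of the 3-copy segment. Of these, Prdx6, a peroxiredoxin, had 10.23, 10.09 and 10.16 in Ts65Dn and 9.53, 9.36 and 9.77 in WT (0.61 ± 0.23, adjusted p = 0.516). Gclm, a subunit of the enzyme that begins glutathione synthesis, differed by −0.40 ± 0.17. For 10 spindle and kinetochore genes the median was −0.22. Cdc20, an activator of the anaphase-promoting complex, had 13.32, 12.85 and 12.96 in Ts65Dn and 13.89, 13.55 and 13.47 in WT. The groups were apart, with a difference of −0.59 ± 0.19 (adjusted p = 0.440), and its 2 other probes gave −0.58 and −0.51. Mov10l1, a helicase of the piRNA pathway that restrains transposons, differed by −0.53 ± 0.21 (adjusted p = 0.562). The median of 10 interferon genes was 0.37, or 0.17 without WT replicate 1, and the gene with the highest t among them was Ifngr2 of the 3-copy segment.

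The largest differences among named genes were chosen from those with the groups apart, an unadjusted p under 0.01 and detection on all arrays of the higher group. In all, 105 of 5178 named genes were apart at that p (2.03%). By chromosome the share was 8.23% on chromosome 17 (20 genes) and 6.63% on chromosome 16 (11 genes). Of the 10 highest and 10 lowest genes, 9 lay on chromosome 17, and none of these 9 belonged to the 3-copy segment. Except Tor1aip2, none of the 20 was called.

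Several of the chromosome 17 genes belong to the major histocompatibility complex. H2-D1, a class I molecule, had 7.10, 8.50 and 8.32 in Ts65Dn and was undetected in WT, at 5.38, 5.50 and 5.56 (at least 2.67-fold higher, adjusted p = 0.0952). The class I gene H2-Q8 went the other way, with 6.86, 6.05 and 6.82 in Ts65Dn and 8.16, 7.99 and 8.26 in WT (−1.56 ± 0.31, adjusted p = 0.116). H2-Ab1, a class II chain, had 7.99, 6.97 and 7.31 in Ts65Dn and 8.98, 8.93 and 8.86 in WT (−1.50 ± 0.38), and its second probe gave −2.94 ± 0.83. H2-DMa, which helps to load class II molecules, differed by −1.07 ± 0.33 and Lst1, a gene of the same complex, by 1.89 ± 0.43. These genes were thus apart in both directions. Against Ts1Cje the differences were 0.20 ± 0.45 for H2-D1, −0.30 ± 0.31 for H2-Q8, −1.03 ± 0.38 for H2-Ab1, −0.12 ± 0.33 for H2-DMa and 0.38 ± 0.43 for Lst1. Class I and II genes share sequence and are highly polymorphic between mouse strains. The strains of the 3 groups are not given in the sources used here, and any part of strain or of probe matching in these values was not tested.

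The other chromosome 17 genes were A930015D03Rik (at least 3.10-fold higher), and the zinc finger genes Zfp871 (−2.11 ± 0.71), Zfp870 (−1.25 ± 0.40) and Zbtb22 (−0.98 ± 0.26). Zfp871 and Zfp870 were each detected on 1 Ts65Dn array only, so their differences rest partly on background signal. Elsewhere, Zbtb40, another zinc finger gene, had 7.56, 8.43 and 8.22 in Ts65Dn and was not detected in WT (at least 2.85-fold higher, adjusted p = 0.10). St3gal1, a sialyltransferase, had 8.95, 8.23 and 8.66 in Ts65Dn and 5.83, 6.38 and 6.72 in WT, with 1 WT array detected. Cadps, a regulator of vesicle exocytosis, differed by 1.97 ± 0.47, Aldh3b1, an aldehyde dehydrogenase, by 1.81 ± 0.48 and Eya3, a phosphatase and transcriptional coactivator, by 2.22 ± 0.66. Of the lower genes, Pdhb, a subunit of pyruvate dehydrogenase, differed by −1.09 ± 0.34. Dgkh, a diacylglycerol kinase, was undetected in Ts65Dn and at least 1.13-fold lower there.

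**Figure D5:**
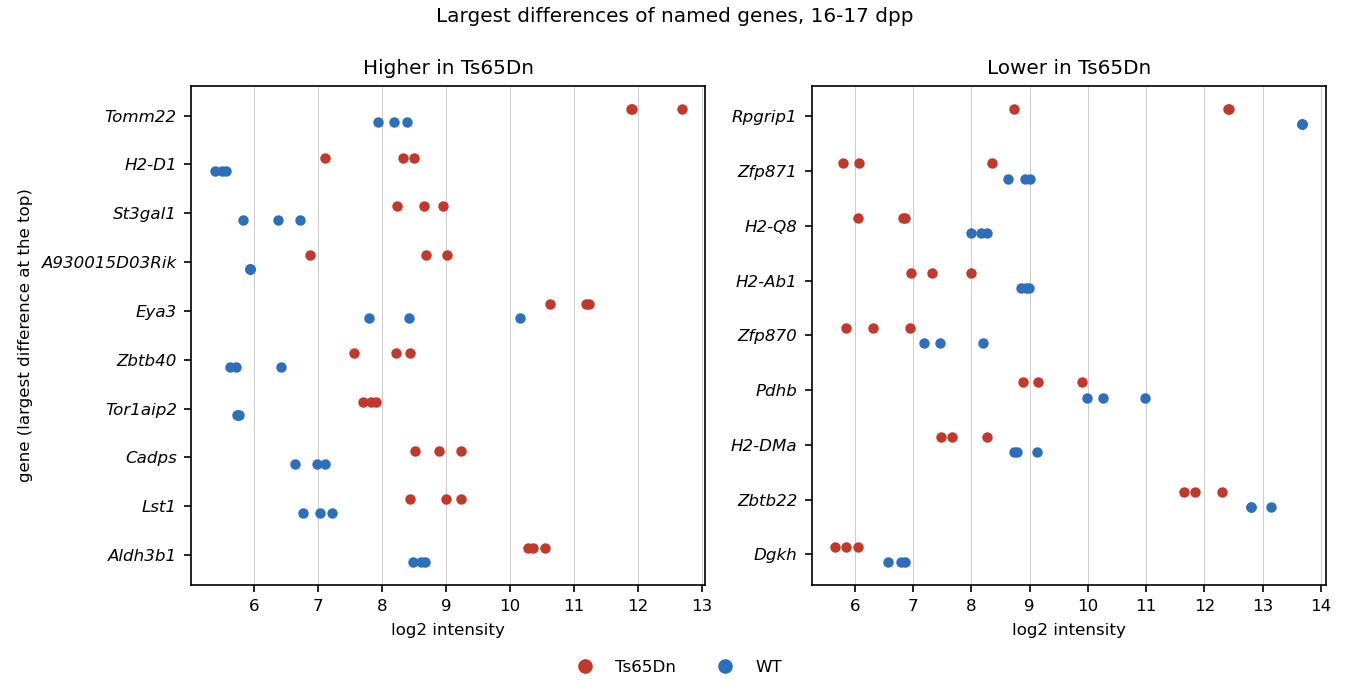
Log2 intensity (horizontal axis) on each array of the 10 named genes with the largest positive and of 9 of the 10 with the largest negative difference at 16-17 dpp, with Ts65Dn drawn above WT in each row. The groups do not overlap in any row, as the rule requires, and the widest spreads within a group are those of Ts65Dn in Rpgrip1 and Zfp871 and of WT in Eya3.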

How the data were processed

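For each of 46657 probes the deposited array files hold a mean bead intensity and a detection p-value, per the file headers, and the submitters' processing notes name BeadStudio. The intensities are neither background-corrected nor normalised, judged from the values. The deposited series table holds log2 values after quantile normalisation without background correction, per the values, and served as an alternative.

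Here 270 control probes were left out of tests. Signals were corrected with nec of limma 3.58.1 (R 4.3.3; offset 16), quantile-normalised and expressed as log2. Probes entered the tests with a detection p below 0.05 on 3 or more of 18 arrays. One limma fit covered the 6 groups, p-values were adjusted over 21340 probes for each of 3 contrasts (Ts65Dn against WT, Ts65Dn against Ts1Cje, and the interaction of age with Ts65Dn), and the scripts were tested on simulated data. Precision is limited by the number of arrays.

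Genes were named from zero-padded target numbers, of which 82.6% of 11857 were gene numbers of the RefSeq table (GRCm38.p6), and from clone names. The brightest tested probe stood for a gene. In an "at least" fold the undetected group is set, on each array, to the higher of the probe's own signal and the lowest signal of a detected probe.

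The members and the 28 gene lists were chosen with earlier results of these data known. Named were every called probe, the top 10 genes in each direction as described, all tested genes of both segments and the Leydig list, and the gene with the highest and the lowest t of the other lists, of which the report gives a part; 1 of the top genes is not reported here. Genes that the reference table places on alternate scaffolds were taken out of the position lists after values had been seen; this removed H2-Q8 from the chromosome 17 list, whose median with it was 0.41 (11 genes).

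Same-numbered Ts65Dn and WT arrays did not deviate together (r = −0.30, 0.26 and −0.23), and the labels do not pair them. Array numbers in the file headers fall into 3 runs of 6, each with 1 array per group. Replicate 1 of Ts65Dn, of Ts1Cje and of WT at 16-17 dpp share a run. The headers do not call a run a slide.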

Additional observations from a re-analysis of the deposited data

How the results depend on the processing

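Of the 4 calls against WT, the count was 14 with median scaling, 0 with no filter on dim probes, 2 over probes detected on all 6 arrays, 24 in a fit of the 2 groups alone, 488 with array weights and 0 to 8 when 1 array was left out. It was 8 without Ts65Dn replicate 1, 1 without WT replicate 1 or 2, and 0 without Ts65Dn replicate 2 or 3 or WT replicate 3. With the replicate number as a block it was 15. The block took the calls of the interaction to 260, and this rests on a shared number only. Against Ts1Cje the calls numbered 1 with median scaling, 6 in a fit of the groups compared and 122 with array weights, and 0 to 1 when 1 array was left out. Those of the interaction numbered 1 with no filter, 274 in a fit of the groups compared, 5228 with array weights and 0 to 34 when 1 array was left out, the highest without Ts65Dn replicate 1 of 19-20 dpp. The causes were not tested. The chromosome 16 median was 0.79 with median scaling, which put the median of all probes at 0.14, and 0.76 over the 22 genes detected on all 6 arrays. It was 0.57 to 0.72 when 1 array was left out. The chromosome 17 median then ran from 0.46 to 0.58 and the Leydig median from 0.71 to 1.24. The Leydig median was 0.59 with no background correction and in the deposited value table. Of 106 named genes, 12 changed the sign of their difference under some setting. The term for the header number run was chosen after seeing the data. With it 4 probes were called against WT, but the call of probe 107000132 was lost (limma, adjusted p = 0.060). That of probe 106980440 was lost in the fit of the 2 groups alone (limma, adjusted p = 0.064). Probes near background limit 8 genes named above and probe 107000132, for which only a lower bound of the fold was given. Other differences also rest partly on undetected arrays, among them those of Zfp871, Zfp870, St3gal1 and Psmc1.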

Other observations

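Some named probes had widely separated levels within single groups. Psmc1, an ATPase subunit of the proteasome, had the highest difference of all tested probes, with 11.39, 11.32 and 11.13 in Ts65Dn and 7.12, 5.43 and 5.86 in WT (5.15 ± 1.95, limma, adjusted p = 0.526). In WT it was detected on 1 array only. Within the Ts1Cje arrays of the same age it read 11.27, 5.36 and 11.25, and at 19-20 dpp it read 5.60, 11.03 and 5.87 in Ts65Dn and 5.52, 11.22 and 11.73 in WT. Tomm22, a receptor of the mitochondrial outer membrane import complex, had 12.68, 11.89 and 11.91 in Ts65Dn and 8.39, 7.93 and 8.19 in WT (3.99 ± 1.24, adjusted p = 0.430). The Ts1Cje arrays read 8.41, 11.73 and 13.21 for this gene, and the 19-20 dpp arrays 8.77, 11.65 and 13.06 in Ts65Dn and 13.83, 12.73 and 9.14 in WT.

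Rpgrip1, which anchors the GTPase regulator RPGR at the cilium base, was the named gene with the largest negative difference, with 8.73, 12.43 and 12.41 in Ts65Dn and 13.68, 13.67 and 13.67 in WT (−2.49 ± 0.72, adjusted p = 0.370). A second Rpgrip1 probe differed by −0.29 ± 0.30. For all 3 genes the source of the separated levels was not tested.

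On chromosome 16 outside the 3-copy segment, Bdh1, a ketone body dehydrogenase of mitochondria, had 10.46, 10.51 and 10.46 in Ts65Dn and 9.51, 9.62 and 9.83 in WT (0.83 ± 0.23, adjusted p = 0.329).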
